A study of Mus musculus with 8 samples.

Results

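The genes that write, erase and read N6-methyladenosine (m6A) in RNA were followed in whole mouse embryos with 0, 1 or 2 copies of an allele that lowers expression of Ott1 (Rbm15 in current nomenclature). The set held 10 genes: Rbm15b, the paralog of Rbm15; the methyltransferase complex genes Mettl3, Mettl14, Wtap, Zc3h13 and Cbll1; the demethylase genes Fto and Alkbh5; and the reader genes Ythdf2 and Ythdc1. A gene entered the account through the array's gene probes whose accession is a RefSeq transcript of that gene. Probes were matched to 8 of the 10 genes, of 13971 genes with a probe in all. Ythdf2 had 2 probes to the same transcript and the 7 others had 1 each, which made 9 probes. Wtap and Ythdc1 had no matched probe and were not analysed here.

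The embryos came from matings of carriers of the low-expression allele and were taken at stage E11.5. Of the 8 embryos, 2 were wild type (embryos 11 and 13), 3 were heterozygous (embryos 3, 10 and 15) and 3 were homozygous for the allele (embryos 2, 7 and 16). Each embryo was hybridised to its own one-colour CodeLink oligonucleotide array, so the replicates are separate embryos. The residual Rbm15 level, the litter, the sex and the strain are not stated in the labels. No probe was matched to Rbm15, so the lowered expression that gives the genotypes their meaning could not be checked on these arrays.

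As background, m6A is laid down on messenger RNA in the nucleus by a heterodimer of Mettl3, the catalytic subunit, and Mettl14, which holds the RNA. Wtap, Virma, Zc3h13 and Cbll1 are accessory subunits, and Rbm15 and Rbm15b are RNA-binding subunits that help place the complex on its targets, among them the Xist RNA. Fto and Alkbh5 are oxygenases that remove methyl groups, and the YTH-domain proteins bind the mark: Ythdc1 acts in the nucleus, while Ythdf2 directs marked RNA to decay in the cytoplasm.

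Levels are given as log2 of the quantile-normalized intensity, and differences as differences of these levels. Apart from ratios on the same array and sums over marker lists, levels of different probes were not set against each other. Probe brightness depends on the probe, so the brightest probes weigh most in a sum. The arrays had 22526 to 26619 gene probes above background. The 3 homozygous arrays had the highest median intensities before normalization, 61.4 to 87.9 against 48.3 to 57.6 on the other 5. The array of homozygous embryo 16 stood apart, with the highest median, the most marked spots (1634 against 206 to 616) and correlations of 0.933 to 0.938 with the other arrays.

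None of the 9 probes passed an adjusted p of 0.05 in any comparison, yet 2 genes, Rbm15b and Alkbh5, lay higher in every homozygous embryo than in any other embryo after quantile normalization. The paralog Rbm15b was 1.21-fold higher and the demethylase Alkbh5 was 1.43-fold higher in the homozygous embryos. The other 6 genes differed by between -0.07 and 0.10 on the log2 scale, each less than its standard error. The separation of both genes was kept under cyclic loess. It was lost under median scaling and in the authors' value table, 2 similar scalings that each divide an array by 1 factor. Under these 2 the Rbm15b difference also changed sign.

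Against the 5 other embryos, 0 of the 9 probes passed by limma with Benjamini-Hochberg adjustment, where 25 of 23388 probes (0.107%) did over the whole array. At an unadjusted p below 0.05, 2 of the 8 genes were higher in homozygous embryos, against 6.63% of all probes, and 0 of the 8 were lower, against 13.4%. The homozygous values lay above all others for 2 of the 7 genes with a value in every embryo, against 4.71% of the 21788 probes with no missing value. They lay below all others for 0 of the 7, against 9.51%. The median difference over the 8 genes was 0.04, beside -0.06 over all probes tested.

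**Figure D1:**
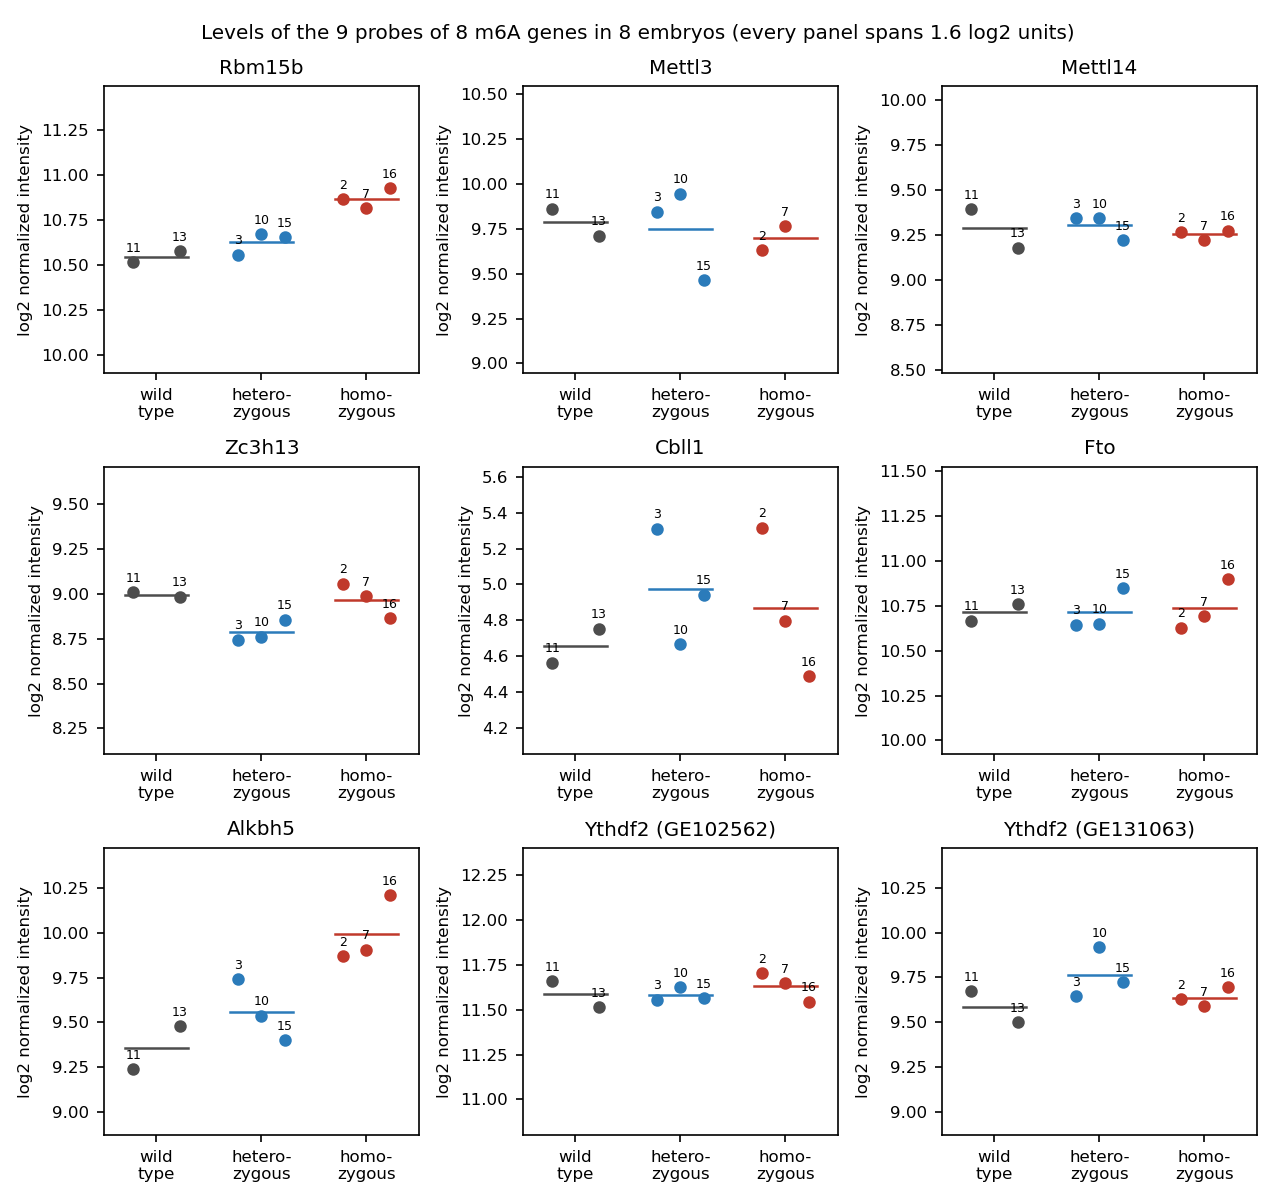
Log2 normalized intensity of each probe in each embryo, by genotype; points are single embryos with their numbers, horizontal lines are genotype means, and every vertical axis spans the same number of log2 units. Rbm15b and Alkbh5 are the panels in which all 3 homozygous embryos lie above the other 5; Mettl3 has no value in embryo 16, where its spot was marked.

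Rbm15b, probe GE102194, is the paralog of the gene targeted in these mice. Its levels were 10.52 and 10.58 in the wild type embryos, 10.56, 10.67 and 10.65 in the heterozygous embryos 3, 10 and 15, and 10.87, 10.82 and 10.93 in the homozygous embryos 2, 7 and 16. The 3 homozygous embryos were highest and did not overlap the others, which lay between 10.52 and 10.67. The mean was 10.59 ± 0.07 (SD, n = 5) in the other embryos and 10.87 ± 0.06 (SD, n = 3) in the homozygous embryos. The difference was 0.28 ± 0.08 (SE), with a 95% confidence interval of 0.09 to 0.46 and an adjusted p of 0.163 by limma. On the rank of differences over the array, 11.9% of probes had a larger one.

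Pairwise, Rbm15b was 0.32 ± 0.11 (SE) higher in homozygous than in wild type embryos, with an interval of 0.07 to 0.57 and an adjusted p of 0.26. It was 0.24 ± 0.10 (SE) higher in homozygous than in heterozygous embryos, with an interval of 0.02 to 0.47 and an adjusted p of 0.414. The heterozygous embryos differed from wild type by 0.08 ± 0.11 (SE), within an interval of -0.17 to 0.33. The heterozygous and wild type values overlapped, so no step between these genotypes was resolved.

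The difference of Rbm15b depended on how the arrays were brought to a common scale. Under cyclic loess it was 0.30, with an adjusted p of 0.152 by limma, and the homozygous levels stayed above all others. It was -0.02 under median scaling and -0.05 in the authors' value table, which divides each array by 1 factor, with adjusted p-values of 0.944 and 0.837. Those scalings also moved the median of all probes from -0.06 to -0.22 and -0.25. Relative to that median, Rbm15b stood 0.34 higher under quantile normalization, 0.20 higher under median scaling and 0.20 higher in the authors' table. After median scaling the homozygous levels were 10.86, 10.82 and 10.42 (embryos 2, 7 and 16) and those of the other embryos spanned 10.64 to 10.92, so the groups overlapped and embryo 16 was the lowest of all 8. With any 1 embryo left out under quantile normalization, the difference stayed between 0.25 and 0.30.

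The upstream sequences of the 2 genes with non-overlapping levels are shown because their short motifs differ. They are the 250 bases before the gene start, 5′ to 3′ on the gene's strand, from RefSeq on GRCm38.p6; capitals mark every match, on either strand, to CACGTG (the E-box), CCAAT or GGGCGG (the GC box, which reads CCGCCC on the other strand).
Rbm15b, chr9:106887076-106887325, minus strand: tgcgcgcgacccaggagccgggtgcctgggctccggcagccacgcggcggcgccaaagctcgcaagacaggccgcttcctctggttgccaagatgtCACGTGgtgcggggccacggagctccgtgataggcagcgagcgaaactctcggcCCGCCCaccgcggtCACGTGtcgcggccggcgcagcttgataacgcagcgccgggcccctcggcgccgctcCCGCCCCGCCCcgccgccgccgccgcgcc
Alkbh5, chr11:60537433-60537682, plus strand: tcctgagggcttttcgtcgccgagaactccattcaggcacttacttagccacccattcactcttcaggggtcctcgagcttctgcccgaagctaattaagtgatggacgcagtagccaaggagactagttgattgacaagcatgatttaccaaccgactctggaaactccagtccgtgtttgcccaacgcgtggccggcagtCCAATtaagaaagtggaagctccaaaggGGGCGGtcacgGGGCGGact

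The Rbm15b window held 2 copies of CACGTG, whose first bases lie 154 and 86 bases before the gene start. Of 32851 windows of that length, 6.02% held at least 1 CACGTG and 0.429% held 2 or more. Both copies were preceded by GT, giving GTCACGTG, a longer form that contains CACGTG and that 1.85% of windows held. The window also held 3 matches to GGGCGG, of which 2 overlap by their last and first base, and its GC content was 76% beside a median of 52.4% over all windows. The Alkbh5 window held no CACGTG, 1 CCAAT at 48 bases before the start (a motif held by 33.8% of windows) and 2 GGGCGG (16.7% held 2 or more), at a GC content of 54%.

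Windows were found for 9 of the 10 genes, 12 windows in all, since Wtap had 3 and Zc3h13 had 2. Rbm15b was the only one of these 9 genes with an E-box of that form. The GC box was present upstream of Rbm15b, Wtap, Zc3h13, Cbll1, Alkbh5, Ythdf2 and Ythdc1 and no match was found in the windows of Mettl3 and Fto. The 4 motifs were chosen after the sequences had been seen, and a match describes letters in the window, not binding.

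Alkbh5, probe GE138393, encodes a nuclear m6A demethylase. Its levels were 9.24 and 9.48 in the wild type embryos, 9.74, 9.54 and 9.40 in the heterozygous embryos 3, 10 and 15, and 9.87, 9.90 and 10.21 in the homozygous embryos 2, 7 and 16. The lowest homozygous embryo, at 9.87, stood just above the highest other one, heterozygous embryo 3 at 9.74. Means were 9.48 ± 0.18 (SD, n = 5) in the other embryos and 9.99 ± 0.19 (SD, n = 3) in the homozygous embryos. The difference was 0.52 ± 0.13 (SE), with a 95% confidence interval of 0.21 to 0.82, which is 1.16-fold to 1.77-fold, and an adjusted p of 0.141 by limma. A larger difference was seen for 4.37% of all probes.

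Between pairs of genotypes, Alkbh5 was 0.64 ± 0.16 (SE) higher in homozygous than in wild type embryos, with an interval of 0.25 to 1.02 and an adjusted p of 0.216. It was 0.44 ± 0.15 (SE) higher than in heterozygous embryos, with an interval of 0.09 to 0.78 and an adjusted p of 0.399. Heterozygous and wild type embryos differed by 0.20 ± 0.16 (SE), with an interval of -0.18 to 0.58, and their values overlapped. Unlike that of Rbm15b, the sign of the Alkbh5 difference was the same under all 17 alternatives, which gave 0.22 to 0.58 with adjusted p-values of 0.0898 to 0.372. The lowest values were those of the authors' table (0.22) and of median scaling (0.25). In the latter, heterozygous embryo 3 at 9.84 lay above homozygous embryo 16 at 9.71. Without embryo 16, under quantile normalization, the difference was 0.41.

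**Figure D2:**
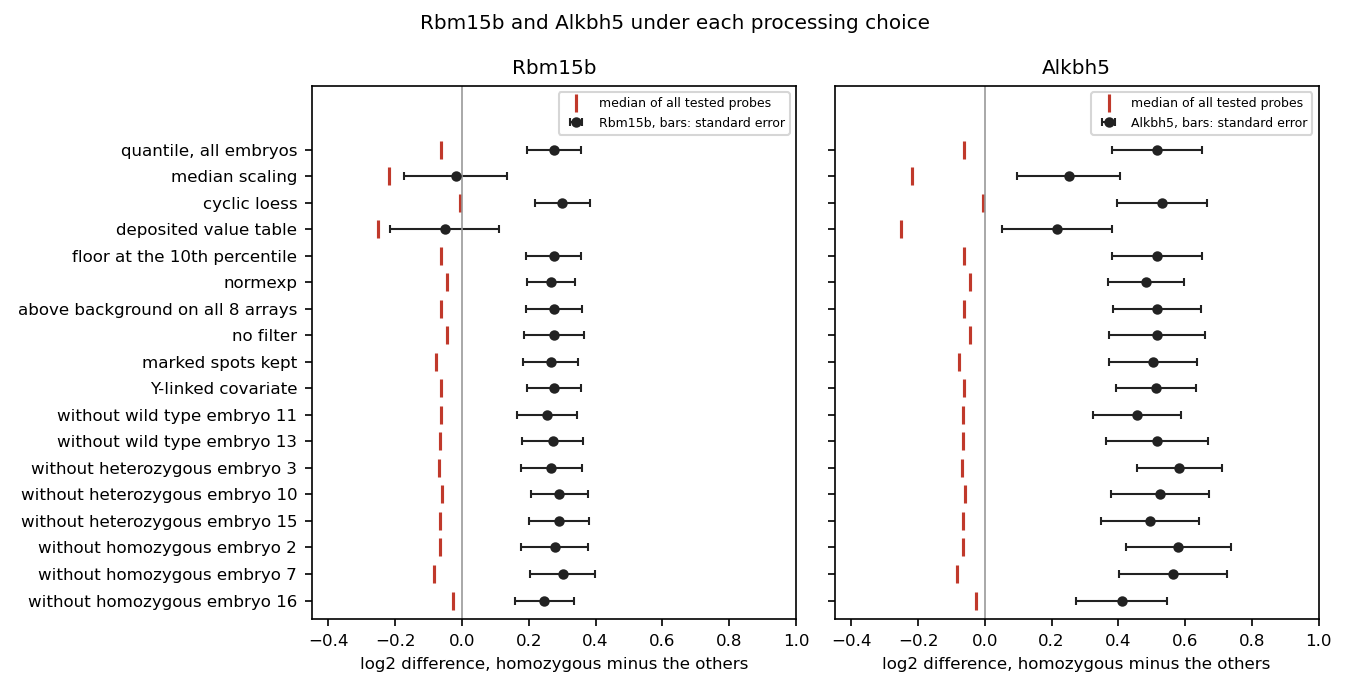
Difference of log2 levels, homozygous minus other embryos, for Rbm15b and Alkbh5 (points, bars are standard errors) under each processing choice and with each embryo left out, beside the median of all tested probes (vertical ticks). Alkbh5 stays right of 0 throughout, and Rbm15b sits at -0.02 after median scaling and at -0.05 in the authors' value table while remaining right of the median tick.

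A factor common to all probes of an array cancels in ratios between its probes, while a difference that varies with intensity does not. The ratios were looked at after the levels had been seen. Before normalization, Rbm15b had intensities of 1335 to 1581 in the 5 other embryos and 1881 to 1958 in the homozygous embryos. These did not overlap, but on this scale 10.7% of all probes had all homozygous values above the others, beside the higher array medians. The log2 ratio of Rbm15b to Mettl14 was 1.31 ± 0.15 (SD, n = 5) in the other embryos and 1.59 ± 0.04 (SD, n = 3) in the homozygous embryos. Its homozygous values, 1.55 to 1.63, lay above those of the others, 1.12 to 1.45. Over all probes, 9% had a ratio to Mettl14 that separated the embryos this way. Set against Fto, Rbm15b also separated them, as 7.81% of all probes did, but only just. Homozygous embryo 16 had 0.026 and heterozygous embryo 10 had 0.020. Rbm15b separated the embryos against the brighter Ythdf2 probe as well, for which no share of all probes was computed.

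The ratio of the 2 demethylases was followed in the same way. The log2 ratio of Alkbh5 to Fto was -1.43 and -1.26 in the wild type embryos, -0.89, -1.19 and -1.47 in the heterozygous embryos 3, 10 and 15, and -0.75, -0.76 and -0.69 in the homozygous embryos 2, 7 and 16. The groups did not overlap, as for 7.81% of all probes set against Fto, and heterozygous embryo 3 came closest to the homozygous embryos. The mean was -1.25 ± 0.23 (SD, n = 5) in the others and -0.73 ± 0.04 (SD, n = 3) in the homozygous embryos. A ratio of 2 genes with no such separation, Fto to Mettl14, was 1.43 ± 0.17 (SD, n = 5) and 1.46 ± 0.13 (SD, n = 3). Set against the brighter Ythdf2 probe, Alkbh5 did not separate the groups, since heterozygous embryo 3 and homozygous embryo 2 both had -1.78.

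**Figure D3:**
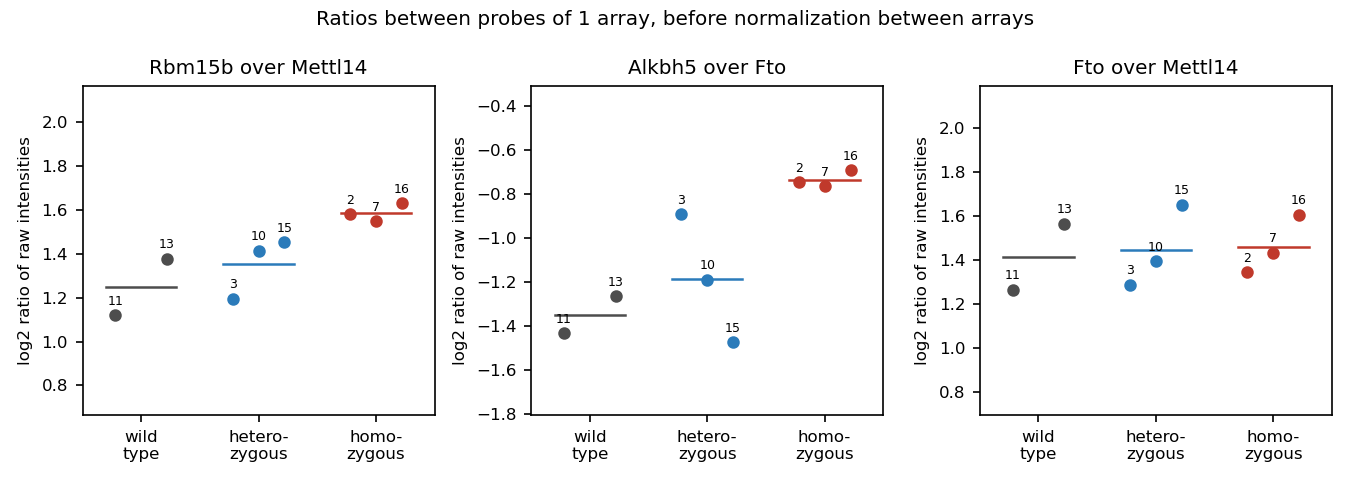
Log2 ratio of the raw intensities of 2 probes on the same array, by genotype, for Rbm15b over Mettl14, Alkbh5 over Fto and Fto over Mettl14; points are single embryos and lines are genotype means. The homozygous embryos lie above the others in the panels for Rbm15b and Alkbh5 and among them in the third panel.

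The catalytic pair of the writer complex differed little between genotypes. Mettl3, probe GE42783, had levels of 9.86 and 9.71 in wild type, 9.85, 9.94 and 9.46 in heterozygous and 9.63 and 9.77 in homozygous embryos 2 and 7. Its spot in embryo 16 was marked by the scanner software and left out, so its difference of -0.07 ± 0.15 (SE) rests on 7 embryos. Mettl14, probe GE1541787, had levels of 9.39 and 9.18 in wild type, 9.34, 9.34 and 9.22 in heterozygous and 9.27, 9.22 and 9.27 in homozygous embryos. Its spread over all 8 embryos was an SD of 0.07, and its difference was -0.04 ± 0.09 (SE), with an interval of -0.24 to 0.15. As a fold, that interval runs from 0.848 to 1.11.

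Among the accessory subunits, Zc3h13, probe GE1406363, which anchors the complex in the nucleus, had levels of 9.01 and 8.98 in wild type, 8.74, 8.76 and 8.86 in heterozygous and 9.06, 8.99 and 8.86 in homozygous embryos. Its lowest values were those of the 3 heterozygous embryos, each below both wild type embryos. The share of all probes with that order was not computed, so the order is only described. The difference between heterozygous and wild type embryos was -0.21 ± 0.11 (SE), with an interval of -0.47 to 0.05, and homozygous embryos exceeded the rest by 0.10 ± 0.10 (SE). Cbll1, probe GE37441, which encodes the ubiquitin ligase Hakai, was above background on 6 of the 8 arrays. Its levels of 4.49 to 5.32 overlapped between all genotypes, with a difference of 0.02 ± 0.22 (SE) and the widest interval of the members, -0.48 to 0.52.

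Fto, probe GE35430, the other demethylase, had levels of 10.67 and 10.76 in wild type, 10.65, 10.65 and 10.85 in heterozygous and 10.63, 10.69 and 10.90 in homozygous embryos. The genotypes overlapped fully, and the difference was 0.03 ± 0.10 (SE), with an interval of -0.20 to 0.25. Of the 2 Ythdf2 probes, GE102562 had levels between 11.51 and 11.70 and a difference of 0.05 ± 0.08 (SE), and GE131063 had levels between 9.50 and 9.92 and a difference of -0.05 ± 0.11 (SE). The probes share a transcript and gave opposite signs, both within 1 standard error of 0. For Mettl3, Mettl14, Zc3h13, Cbll1, Fto and Ythdf2, the difference between homozygous and the 5 other embryos turned sign under some alternatives for each gene but Mettl14.

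**Figure D4:**
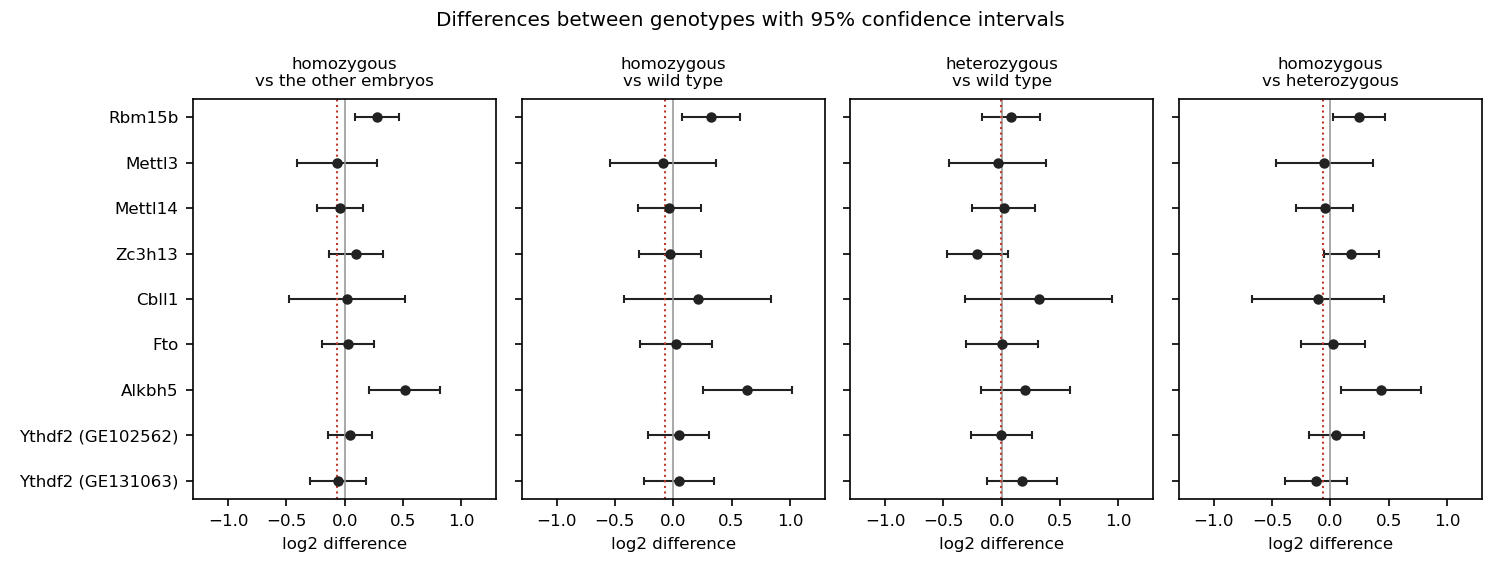
Log2 difference of each probe in the 4 comparisons (points), with 95% confidence intervals from limma (bars), the line at 0 and the median of all tested probes (dotted). The intervals of Rbm15b and Alkbh5 exclude 0 in the 3 comparisons with homozygous embryos before adjustment for multiple tests; those of all other probes include it.

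In the pairwise comparisons, 0 of the 9 probes passed the adjusted threshold in homozygous against wild type embryos, where 8 of 23387 probes (0.0342%) did. The count was also 0 in heterozygous against wild type embryos, where 0 of 23387 probes (0%) passed, and in homozygous against heterozygous embryos, where 5 of 23388 (0.0214%) passed. At an unadjusted p below 0.05, Rbm15b and Alkbh5 were the 2 of 8 genes higher in homozygous than in wild type embryos, against 5.93% of all probes. The same 2 genes were higher in homozygous than in heterozygous embryos, against 3.78% of all probes. In heterozygous against wild type embryos, 0 of the 8 genes reached that level in either direction, against 2.3% of all probes. The 4 comparisons share embryos, so none is independent evidence for another.

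Markers of other cells also differed between the genotypes; in all, 13.4% of probes were lower and 6.63% higher in homozygous embryos at an unadjusted p below 0.05. All 5 liver markers were lower in homozygous embryos under each of the 4 scalings run, 4 of them at that p, and their summed normalized intensity was 5485 to 6551 in wild type, 3398 to 6105 in heterozygous and 2413 to 3150 in homozygous embryos. The 3 macrophage markers with a probe were lower under each of those scalings as well, all 3 at that p. Their sums were 298 to 336, 107 to 378 and 83.4 to 111 in the same order. Of these 3, Lyz2 alone was above background on all 8 arrays, Mrc1 on 6 and Fcgr1 on 5. Fcgr1 lay at 3.75 to 3.83 in the homozygous embryos and Mrc1 at the floor of 2.17 in embryo 7. Both are limited by their signal. Against wild type, 1 of the 3 passed the adjusted threshold, beside 0.0342% of all probes. In the authors' table, 45 of 23388 probes passed against the 5 other embryos. Fcgr1 and the liver marker Ttr were among them, at an adjusted p of 0.0483 by limma. All 8 neuron markers had lower means under the 4 scalings, with sums of 9053 to 9700, 5289 to 9161 and 5748 to 6591. Only 1 of the 8 was lower at an unadjusted p below 0.05, a share near that of all probes. Under median scaling and in the authors' table, 4 of the 8 were. Of 5 skeletal muscle markers 2 were lower at that p, led by the myogenic regulator Myog at -1.09 ± 0.31 (SE). Their summed intensity was 8954 to 9346, 8133 to 10049 and 9732 to 11267. Most of that sum came from Actc1, at levels of 12.85 to 13.40, so it says little about the others. Actc1 was higher by 0.22, but negative under median scaling and in the authors' table. The other 4 had lower means under each of the 4 scalings, by -0.24 to -1.09 under quantile normalization.

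Other markers lay in the same direction as Rbm15b and Alkbh5. The 3 tested cardiomyocyte markers had differences of 0.35 to 0.40, none at an unadjusted p below 0.05. Of the 3, 1 was negative under median scaling and in the authors' table, namely Myl7. Sums over the 4 with a probe were 8584 to 9441, 7275 to 12531 and 11659 to 12311. Most of each sum came from Myl7, at levels of 12.76 to 13.55, so the sums say little about the others. Myh6, the cardiac alpha myosin heavy chain, was above background on 0 of the 8 arrays. The 3 tested endothelium markers had differences of 0.08 to 0.28, of which 2 were negative under those 2 scalings. Sums over 4 probes were 1387 to 1540, 1517 to 1583 and 1522 to 2105. Most of each sum came from Kdr, at levels of 9.97 to 10.65, and Cdh5 was above background on 1 of the 8 arrays. Pecam1, an endothelial adhesion molecule, was the 1 endothelial marker with an unadjusted p below 0.05, at 0.24 ± 0.09 (SE). Of the maternal decidua and adult blood markers, 1 of the 2 tested, Dcn, was higher at that p. The other, Prl8a2, ran from 4.30 in heterozygous embryo 3 to 7.85 in homozygous embryo 7. The part of maternal tissue in the samples was not tested. The neural progenitor (5 tested), embryonic red cell (4), limb and cartilage (2), trophoblast (2), visceral endoderm (1) and Y-linked (4) markers had 0 at that p in either direction. The spots standing for Hbb-y and Hba-x were saturated on 8 and 6 of the 8 arrays, which limits what they could show. In whole embryos, fewer cells of a type and less RNA per cell cannot be told apart, and the part of tissue makeup in the levels of Rbm15b and Alkbh5 was not tested. The Y-linked genes were low in embryos 3, 15 and 16, 2 heterozygous and 1 homozygous. In embryo 16 this rests on Kdm5d and Uty, since the spots of Ddx3y and Eif2s3y were marked there. With the mean level of Kdm5d and Uty as a covariate, the differences of Rbm15b and Alkbh5 were 0.28 and 0.51.

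Other genes of m6A biology gave no call either. Of 22 further genes on the m6A list, 15 had a tested probe, and 0 of them passed in any comparison. At an unadjusted p below 0.05, 0 of the 15 were higher in homozygous embryos than in the others, against 6.63% of all probes, and 2 were lower, a share near the 13.4% of all probes. The list median was 0.00 beside -0.06 over all probes. These 2 were the m6A-sensitive RNA-binding proteins Rbmx, at -0.29 ± 0.09 (SE), and Hnrnpc, at -0.34 ± 0.12 (SE), with adjusted p-values of 0.168 and 0.187. Homozygous levels of Rbmx were 11.48, 11.46 and 11.45, below a range of 11.63 to 11.91 elsewhere, without overlap, as for 9.51% of all probes. Those of Hnrnpc were 11.25, 11.33 and 11.20, beside 11.32 to 11.81, and overlapped through heterozygous embryo 3.

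Virma and Ythdc2 had no matched probe. The cytoplasmic readers Ythdf1 and Ythdf3 differed by 0.02 ± 0.11 (SE) and 0.00 ± 0.09 (SE), and Mettl16, a separate m6A methyltransferase, by -0.01 ± 0.11 (SE); Ythdf1 and Ythdf3 turned negative with median scaling and with the authors' table, and Mettl16 positive under cyclic loess. Relative to the median of all probes, Ythdf1, Ythdf3 and Mettl16 stood at 0.08, 0.06 and 0.06 under quantile normalization and at -0.13, -0.06 and -0.08 under median scaling. Spen, a large relative of Rbm15 and Rbm15b that binds Xist, had levels of 9.73 and 10.47 in wild type, 10.32, 10.06 and 10.57 in heterozygous and 10.61 and 10.69 in homozygous embryos 2 and 7. Its spot was marked in embryo 16. Its difference was 0.42 ± 0.22 (SE), with an interval of -0.10 to 0.94 and an adjusted p of 0.322.

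Of the partners through which YTH readers act, 13 of 18 were tested. With 1 probe counted for each gene, none passed the adjusted threshold. At an unadjusted p below 0.05, 0 were higher and 1 was lower, against 6.63% and 13.4% of all probes. A second Cnot6l probe, GE102729, was not counted. Its homozygous levels of 8.86, 9.01 and 8.93 lay above a range of 8.49 to 8.73 elsewhere, as for 4.71% of probes with no missing value. The second Cnot7 probe, also not counted, had a lower homozygous mean, 7.90 beside 8.14, with overlap. The list median was -0.08 beside -0.06 over all probes. The 1 gene was Srsf10, a splicing factor that Ythdc1 is known to hold off, with homozygous levels of 10.66, 10.70 and 10.32, below a range of 10.78 to 11.12 elsewhere, which 9.51% of all probes also showed. Its difference was -0.36 ± 0.12 (SE) with an adjusted p of 0.185. Cnot10, of the deadenylase complex that Ythdf2 recruits, followed at -0.26 ± 0.11 (SE) with no value in embryo 16.

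The relatives of Alkbh5 and of the writer enzymes made up the remaining lists. Alkbh1 had no matched probe. Of 7 further AlkB family genes 3 were tested and 0 reached an unadjusted p of 0.05, led by the DNA repair gene Alkbh2 at 0.24 ± 0.11 (SE) and the mitochondrial Alkbh7 at 0.11 ± 0.10 (SE); both turned negative with median scaling and with the authors' table, which move all probes down. Relative to the median of all probes, Alkbh2 stood at 0.30 under quantile normalization and at 0.19 under both of those scalings, and Alkbh7 at 0.18, -0.04 and -0.03. Of 22 other RNA methyltransferase genes 18 were tested, and 0 passed the adjusted threshold. At an unadjusted p below 0.05, 2 of the 18 were higher and 2 were lower, against 6.63% and 13.4% of all probes. The smallest p-values were those of Nsun3, which modifies a mitochondrial tRNA, at 0.34 ± 0.11 (SE), and Cmtr2, a cap methyltransferase, at 0.34 ± 0.11 (SE). Both kept a positive sign under the 4 scalings. Of 9 genes of DNA methylation 4 were tested and 0 reached an unadjusted p of 0.05; Dnmt1, the maintenance enzyme, differed by 0.09 ± 0.08 (SE) and Dnmt3b, a de novo enzyme, by 0.14 ± 0.17 (SE), both negative with median scaling and with the authors' table. Relative to the median of all probes they were 0.15 and 0.20 under quantile normalization and -0.06 and 0.06 under both of those scalings.

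**Figure D5:**
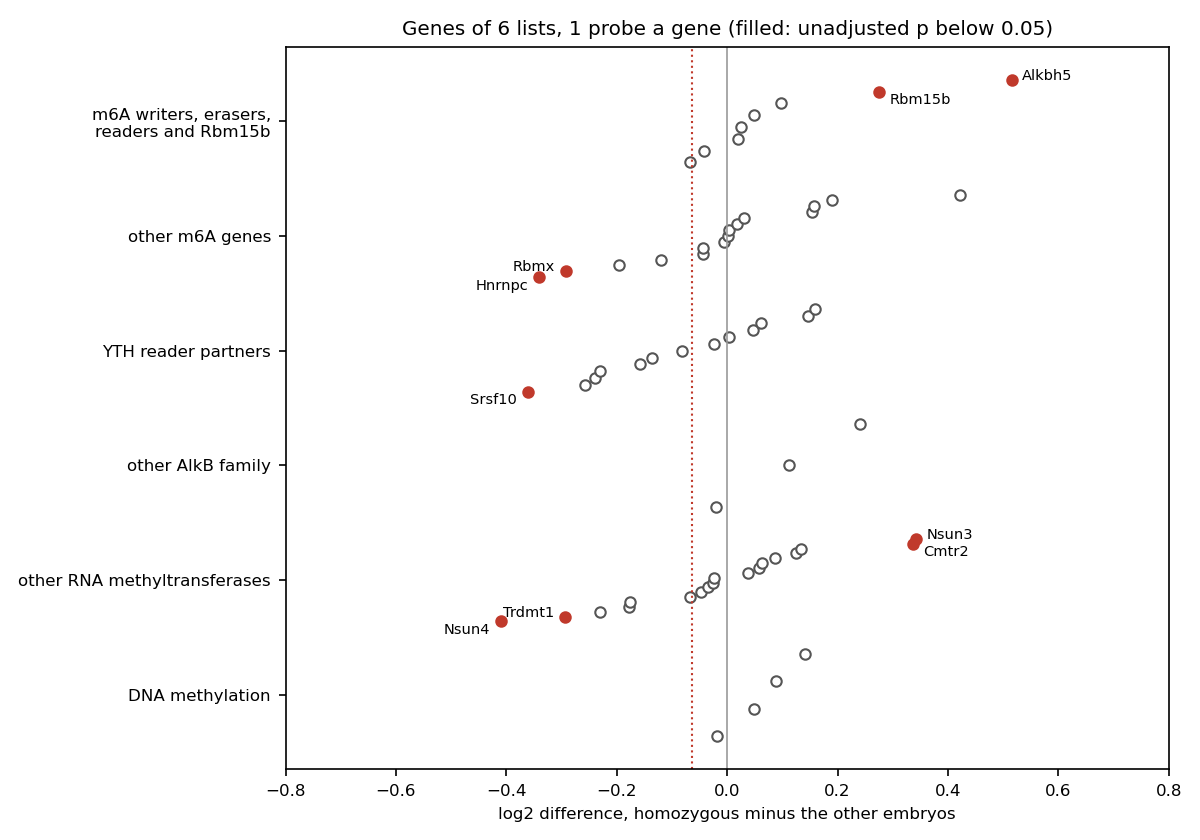
Difference of log2 levels, homozygous minus other embryos, for the tested genes of each list, 1 probe a gene; filled points have an unadjusted p below 0.05, the solid line is 0 and the dotted line is the median of all tested probes. Alkbh5 and Rbm15b are the filled points of the top list, and the filled points of the next 2 lists, Hnrnpc, Rbmx and Srsf10, lie to the left.

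The genes whose levels followed Rbm15b most closely over the 8 embryos were sought among 9501 named genes above background on every array. They were B4gat1 (Pearson r = 0.99), which acts in glycosylation of dystroglycan, Tpgs1 (0.98), a tubulin polyglutamylase subunit, Anapc1 (0.97), the largest subunit of the anaphase-promoting complex, Ece1 (0.97), which activates endothelin, and Ubox5 (0.96), a ubiquitin ligase. B4gat1 reached 9.25, 9.28 and 9.45 in homozygous embryos 2, 7 and 16, above a range of 8.63 to 8.90 elsewhere. It was picked for its likeness to Rbm15b in these same embryos, so that separation follows from the choice. The points are embryos that share genotype, array and scaling, and 333 of the 9501 genes (3.50%) had an r over 0.8. Of these 5 genes, Ece1 alone had a CACGTG in its 250 upstream bases.

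For Alkbh5, whose nearest patterns were added after its values had been seen, the 5 genes were Fam160a2 (r = 0.97), Tm2d3 (0.97), Slc17a5 (0.97), a lysosomal sialic acid exporter, Rnf6 (0.96), a ubiquitin ligase, and Sertad2 (0.96). An r over 0.8 was found for 306 genes (3.22%). Sertad2 was 7.95 and 7.97 in the wild type embryos, 8.75, 8.28 and 8.17 in heterozygous embryos 3, 10 and 15 and 8.75, 8.87 and 9.15 in homozygous embryos 2, 7 and 16. As for Alkbh5, to which it was matched over these same embryos, heterozygous embryo 3 was the highest outside the homozygous group. None of these 10 genes passed the adjusted threshold in homozygous against other embryos, with adjusted p-values of 0.0708 to 0.328 by limma.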

How the data were processed

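RNA of 8 whole embryos was labelled and hybridised to CodeLink arrays, per the labels' protocols. The deposited array files hold, per the file headers, an intensity for each spot, which the values show to be spot mean less local background median; the deposited value table holds the same intensities divided by 1 factor per array (48.6 to 88.5). Scanner settings: not given in the sources used here.

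Control spots were left out and marked spots (contaminated, irregular or masked) set missing. Intensities were quantile normalized, floored at their 5th percentile (4.50) and log2 transformed in R 4.3.3 with limma 3.58.1. A probe was tested if above background in every embryo of some genotype (23389 probes), with lmFit and eBayes, two-sided, and adjusted by Benjamini-Hochberg over all probes at 0.05. A fit of 2 groups compared the 3 homozygous with the 5 other embryos, and a fit of 3 genotype means gave the pairs. The procedure was tested on simulated data. With 2 or 3 arrays a genotype, precision is limited by their number.

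Probes were named through RefSeq accessions of GRCm38.p6: 14763 had 1 symbol and 20204 none. Members and lists were chosen with earlier results of these data known. Named were all members, the genes Virma, Ythdf1, Ythdf3, Ythdc2, Spen, Alkbh1 and Mettl16, and 5 genes with patterns like Rbm15b. Of each list other than the cell type markers, any gene past the threshold and the 2 with the smallest p-values were named. Cell type markers were counted and summed, and only some of them were named. A gene with several probes was represented in lists by the brightest. Alternatives tried: cyclic loess, median scaling, the authors' table, a floor at the 10th percentile, normexp (offset 50), 2 other filters, marked spots kept, a Y-linked covariate, separate fits of each pair, and leaving out 1 embryo at a time.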

Additional observations from a re-analysis of the deposited data

How the results depend on the processing

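Of 631 values of the 9 probes over the 4 comparisons and the alternatives, 0 passed the threshold and 69 turned sign; 58 of those had a difference between -0.1 and 0.1 to begin with. No paired analysis was possible because no embryo number is shared between genotypes. The number of probes past the threshold, was 25 for homozygous against others, 8 against wild type, 0 for heterozygous against wild type and 5 for the 2 mutant genotypes, the order kept here. Counts that moved by over 1.5 times were 27, 2 and 10 for the last 3 under median scaling; 42, 20, 1 and 9 under cyclic loess; 45, 27, 2 and 12 in the deposited table; 85, 36 and, for the last, 11 under normexp. For the first comparison, the count was 50 with probes above background on all 8 arrays, 6 with no filter and 58 with the Y-linked covariate; for the second it was 4 with no filter, 5 with marked spots kept and 0 with only the groups compared. With 1 embryo left out, counts ran from 5 to 314, 0 to 42, 0 to 3 and 4 to 58; the highest counts of all but the third came without homozygous embryo 7, and the first moved by over 1.5 times without each embryo except 2 and 16. Leaving out a wild type embryo leaves 1, assumed to vary like the other groups.

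Turned values, homozygous against others, were -0.0184 for Rbm15b, -0.31 for Ythdf2 (GE102562), -0.14 for Zc3h13 and -0.27 for Fto under median scaling, where the median of all probes was -0.22. They were -0.0522, -0.34, -0.17 and -0.30 in the deposited table, with a median of -0.25. Rbm15b also turned to -0.0432 (median scaling) and -0.0762 (authors' table) against heterozygous embryos, and to -0.0161 (authors' table) against wild type. Cbll1 was -0.018 with marked spots kept. With 1 embryo left out, Cbll1 ran from -0.20 to 0.22, Ythdf2 (GE131063) from -0.10 to 0.00128, Mettl3 from -0.14 to 0.000745 and Fto from -0.0531 to 0.0819. Only the construction of these settings is known; the cause was not tested. Cbll1, above background on 6 of 8 arrays, is limited by its signal.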
